A study of Mus musculus with 6 samples.

Results

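Phosphate and pyrophosphate control of mineralization is described here through 9 genes, Phospho1, Alpl, Smpd3, Enpp1, Ank, Slc20a1, Slc20a2, Phex and Fam20c, in dental pulp of wild-type (WT) and Mmp13-/- mice. The genes were taken by symbol from 53342 Ensembl genes. The rule names no measured value, but the set was chosen with earlier results of these data known. All 9 were among the 24534 genes that passed the filter on low counts. Pulp RNA came from 3 separate biological samples of WT mice (replicates 2, 4 and 5) and 3 of Mmp13-/- mice (replicates 1, 2 and 6), all male by the study's methods, 3 months old and on C57BL/6. The Mmp13-/- mice lack the collagenase gene in every tissue, so pulp differences cannot be assigned to pulp cells alone, and no other allele or agent was used. The titles of the WT samples name molars, those of the Mmp13-/- samples name no tooth, and the study's methods name incisors. This difference was not resolved, and the titles do not show whether both genotypes came from the same tooth type.

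Hydroxyapatite in dentin and bone forms where phosphate is released faster than pyrophosphate, a mineral inhibitor, can hold crystals back. Tissue-nonspecific alkaline phosphatase, encoded by Alpl, cleaves pyrophosphate to phosphate, while the ectoenzyme encoded by Enpp1 makes pyrophosphate from nucleotides and Ank controls its release from the cell. Inside matrix vesicles the phosphatase Phospho1 frees phosphate from phosphocholine, part of which comes from sphingomyelin cut by the Smpd3 product. Slc20a1 and Slc20a2 encode sodium-phosphate carriers. Phex encodes a cell-surface peptidase whose loss causes X-linked phosphate wasting with defective dentin, and Fam20c encodes the secretory-pathway kinase that phosphorylates dentin and bone matrix proteins.

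The libraries differed in ways that moved with genotype. Total estimated counts were 28442936 to 29980236 in WT and 21561420 to 26547121 in Mmp13-/-. Mmp13 itself had normalized counts (counts scaled by library size and TMM factor to the mean library) of 999.8, 1061 and 818 in the WT libraries against 8.76, 29.8 and 63.4 in the Mmp13-/- libraries (here and throughout in the order WT 2, 4, 5 and Mmp13-/- 1, 2, 6), a log2 fold change of -4.96 ± 0.46 (SE; adjusted p = 7.67e-05). Mmp13-/- sample 6 stood apart, with 53.7% of its counts in its 10 most abundant genes against 22.6% to 27.2% in the other 5. Reads on 1949 odorant and vomeronasal receptor genes, which pulp is not known to use, reached 362.6 to 1333 CPM (counts over the library total, scaled alike in all libraries) in Mmp13-/- and 28.3 to 49.05 in WT. Of the 8 odontoblast markers 5 fell and 1, Dspp, rose, and their summed normalized count was 1484504 to 1666636 in WT and 441462 to 589328 in Mmp13-/-. Most of that sum is Col1a1 (mean of 1078865 in WT and 240895 in Mmp13-/-) and Col1a2 (455103 and 190404), collagen genes that other cells also use, and after GC correction 1 odontoblast marker fell, Col1a1, and 1 rose, Dspp. Skeletal muscle markers fell (5 of 6, sums of 1107596 to 1314318 in WT and 201626 to 487418 in Mmp13-/-). All 6 marrow myeloid markers (1925 to 3979 against 14803 to 37068), all 4 B cell markers (114 to 204 against 543 to 753), all 4 erythroid markers (14633 to 23392 against 43073 to 82838) and all 4 osteoclast markers (1942 to 2057 against 6687 to 12506) rose. Of the osteoblast and osteocyte markers 2 of 6 rose and none fell (26209 to 36629.9 against 28071 to 37320.0). Of the ameloblast markers 2 of 7 rose and none fell (40784 to 124898 against 102836 to 142398). Of the endothelial markers 2 of 4 fell and none rose (4745 to 5609.9 against 3561 to 5016). Of the Schwann cell markers 1 of 4 fell and none rose (1291 to 5850.2 against 1384 to 1793). Over all genes tested, 27.3% were higher and 24.3% lower with TMM factors, and 23.3% and 13.0% after GC correction. After GC correction 4 of 6 osteoblast and osteocyte markers rose, and no ameloblast or Schwann cell marker passed. Among endothelial markers 1 then rose and 1 fell. The muscle, myeloid, B cell, erythroid and osteoclast counts were the same after GC correction. No marker was at or under 3 counts in all libraries. The part of these shifts in the results on the 9 genes was not tested.

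The start regions of the 3 genes whose call held under every alternative tried are shown here. None of those alternatives changed how reads on shared exons were assigned, so the Phospho1 count stays uncertain, as described below. RefSeq (GRCm38.p6) held start regions for 7 of the 9 genes, as windows of 300 bases from 250 before to 50 after the start. Capitals mark matches, on either strand, to the GC box GGGCGG, the Runx core ACCACA, the TCF/LEF core CTTTGA, the TATA box TATAAA and the CCAAT box CCAAT. The Phospho1 window is chr11:95824250-95824549 on the plus strand, the Enpp1 window chr10:24712110-24712409 on the minus strand and the Phex window chrX:157415237-157415536 on the minus strand.
Phospho1: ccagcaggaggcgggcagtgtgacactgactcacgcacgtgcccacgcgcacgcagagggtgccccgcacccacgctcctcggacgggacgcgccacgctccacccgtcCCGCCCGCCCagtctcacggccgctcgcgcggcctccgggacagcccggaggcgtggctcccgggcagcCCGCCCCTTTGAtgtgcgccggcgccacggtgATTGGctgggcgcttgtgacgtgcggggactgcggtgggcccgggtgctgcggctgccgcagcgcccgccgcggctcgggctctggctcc
Enpp1: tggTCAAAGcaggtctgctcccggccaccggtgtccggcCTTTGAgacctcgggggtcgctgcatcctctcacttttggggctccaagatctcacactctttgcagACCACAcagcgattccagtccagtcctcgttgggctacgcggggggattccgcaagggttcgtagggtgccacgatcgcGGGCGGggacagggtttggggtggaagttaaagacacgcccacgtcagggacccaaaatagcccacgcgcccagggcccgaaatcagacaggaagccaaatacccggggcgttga
Phex: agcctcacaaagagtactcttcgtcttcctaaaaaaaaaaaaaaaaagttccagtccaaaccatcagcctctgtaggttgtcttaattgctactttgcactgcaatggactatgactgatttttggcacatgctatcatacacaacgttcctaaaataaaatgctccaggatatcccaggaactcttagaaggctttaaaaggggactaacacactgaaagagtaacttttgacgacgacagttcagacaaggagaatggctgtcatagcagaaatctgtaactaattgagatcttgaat

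The 3 windows differed widely in composition. The Phospho1 window was 77.0% GC with 42 CpG, the Enpp1 window 61.7% with 22 CpG and the Phex window 38.7% with 4 CpG, where the median over 32851 promoters was 52.7% with 7 CpG. The Phospho1 window held 3 GC boxes, 2 of which share bases, 1 TCF/LEF core and 1 CCAAT box. The Enpp1 window held 1 GC box, 1 Runx core and 2 TCF/LEF cores, and the Phex window held none of the 5 motifs. Over all promoters, 35.7% held the GC box, 16.8% the Runx core, 16.0% the TCF/LEF core, 13.6% the TATA box and 37.4% the CCAAT box.

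Of the 9 genes, 5 fell in Mmp13-/- pulp and 2 rose. Phospho1, Alpl, Ank, Slc20a2 and Fam20c were lower, Enpp1 and Phex were higher, and Smpd3 and Slc20a1 did not pass the test (edgeR quasi-likelihood test, Benjamini-Hochberg adjusted p under 0.05 over all 24534 genes). With TMM factors, 24.3% of all genes tested were lower and 27.3% higher. With library totals in place of TMM factors, 1 of the 9 genes was lower, Phospho1, where 3065 of all 24534 genes were. With GC correction Phospho1 was again the 1 lower gene, where 13.0% of all genes were lower. The counts that follow are with TMM factors. Past 2-fold there was 1 lower gene, Phospho1, and 1 higher gene, Phex, where 9.68% and 20.4% of all genes were lower and higher. Every Mmp13-/- sample lay below every WT sample for 5 of the 9 genes and above for 2, against 29.1% and 31.8% of all genes. The median log2 fold change was -0.68 over the 9 genes and 0.10 over all genes tested, which include many genes of lower count. All 9 exceeded a mean log2 CPM of 3. Among genes above that level, medians of groups by GC content ran from 0.82 (lowest GC) to -1.12 (highest). The middle groups had -0.25 and -0.43. Without Mmp13-/- sample 6 there were again 5 lower genes and 2 higher ones, with log2 fold changes of -0.56 for Alpl, -0.51 for Ank, -0.72 for Slc20a2 and -0.83 for Fam20c. In bulk tissue, fewer cells of a type and less RNA per cell cannot be told apart.

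**Figure D1:**
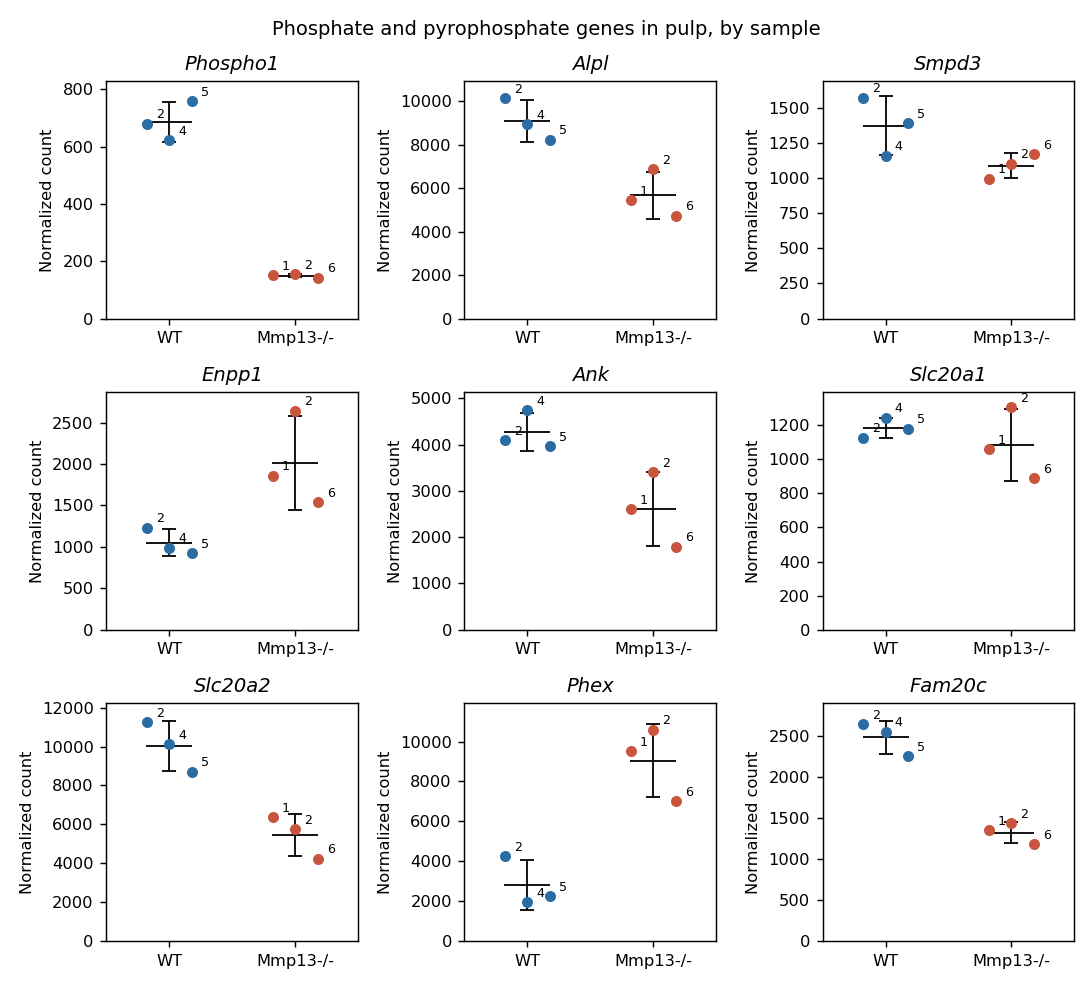
Normalized counts of the 9 genes in each sample, with points numbered by replicate, blue for WT and red for Mmp13-/-, and lines for the mean ± SD (n = 3). The genotypes overlap for Smpd3 and Slc20a1 and are separate for the other 7 genes, with Phospho1 at 622 to 759 in WT and 143 to 156 in Mmp13-/-.

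Among the enzymes that release phosphate, Phospho1 (ENSMUSG00000050860) showed the largest fall of the set. It lies at chr11:95824499-95832140 on the plus strand and has 3 exons. Its normalized counts were 679.7, 622 and 759 in WT against 152, 156 and 143 in Mmp13-/-. The WT samples were all high and the Mmp13-/- samples were all low and close together, with no overlap. The mean was 687 ± 68.3 (SD, n = 3) in WT and 150.3 ± 6.88 in Mmp13-/-, 4.56-fold lower (log2 fold change -2.19, 95% interval -2.52 to -1.85, adjusted p = 2.30e-05). Without Mmp13-/- sample 6 the log2 fold change was -2.15.

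The Phospho1 count is uncertain because its exons are shared in the GENCODE M21 annotation. Of its 2029 exon bases, 89.6% also lie in exons of Zfp652 on the same strand and 84.2% in exons of Abi3 on the opposite strand, and whether the counting used strand is not given in the sources used here. Zfp652, a zinc finger gene, had normalized counts of 6354, 7184 and 6226 in WT against 3265, 3476 and 2262 in Mmp13-/- (log2 fold change -1.13, adjusted p = 0.00106). Abi3 had 137, 166 and 146 in WT against 79.2, 90.0 and 144 in Mmp13-/- (-0.55, adjusted p = 0.0894). Both neighbours had lower means in Mmp13-/-, by less than Phospho1 in this fit. After GC correction the log2 fold change was -1.27 for Zfp652 (adjusted p = 0.000504), a larger fall than the -1.13 of Phospho1, and 0.48 for Abi3 (adjusted p = 0.194). The share of the neighbours in the Phospho1 count was not tested.

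Alpl (ENSMUSG00000028766; chr4:137741733-137796384, minus strand, 12 exons) was lower by a smaller step. Its normalized counts were 10126, 8926 and 8227 in WT against 5439.7, 6861 and 4735 in Mmp13-/-. All 3 Mmp13-/- samples lay below the WT samples, with samples 1 and 6 lowest. The mean fell from 9093 ± 961 to 5679 ± 1083 (SD, n = 3), 1.60-fold (log2 fold change -0.68, 95% interval -1.10 to -0.25, adjusted p = 0.0134). The call was lost with library totals (-0.55, adjusted p = 0.249) and with GC correction (0.10, adjusted p = 0.638).

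Smpd3 (ENSMUSG00000031906; chr8:106252548-106337988, minus strand, 9 exons) had normalized counts of 1570.4, 1157 and 1389.8 in WT against 995, 1101 and 1169 in Mmp13-/-. The genotypes overlapped, since Mmp13-/- sample 6 lay above WT sample 4. The log2 fold change was -0.34 (95% interval -0.67 to 0.00, adjusted p = 0.0900). Without WT sample 4 it was -0.49 and passed (adjusted p = 0.0428).

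Of the pyrophosphate genes, the one that makes pyrophosphate rose and the one that releases it fell. Enpp1 (ENSMUSG00000037370; chr10:24637914-24712159, minus strand, 25 exons) had normalized counts of 1232, 991 and 921 in WT against 1858, 2642 and 1541 in Mmp13-/-. Every Mmp13-/- sample was above every WT sample, and sample 2 was highest. The mean rose from 1048 ± 163 to 2014 ± 567 (SD, n = 3), 1.92-fold (log2 fold change 0.94, 95% interval 0.48 to 1.41, adjusted p = 0.00415). With each sample left out in turn, the log2 fold change ranged from 0.64 (without Mmp13-/- sample 2) to 1.10 (without Mmp13-/- sample 6).

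Ank (ENSMUSG00000022265; chr15:27466677-27594909, plus strand, 12 exons) had normalized counts of 4101, 4742 and 3969 in WT against 2609, 3402 and 1797 in Mmp13-/-. The genotypes did not overlap, although the Mmp13-/- samples were widely spread, with sample 6 lowest. The mean fell from 4271 ± 414 to 2603 ± 802 (SD, n = 3), 1.64-fold (log2 fold change -0.71, 95% interval -1.21 to -0.22, adjusted p = 0.0213). The call was lost without WT sample 4 at nearly the same log2 fold change (-0.67, adjusted p = 0.0690), with library totals (-0.56, adjusted p = 0.216) and with GC correction (-0.36, adjusted p = 0.133).

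The 2 phosphate carriers of the set behaved differently. Slc20a2 (ENSMUSG00000037656; chr8:22476788-22569612, plus strand, 11 exons) had normalized counts of 11242, 10125 and 8710.4 in WT against 6373, 5757 and 4229 in Mmp13-/-. All Mmp13-/- samples were lower than all WT samples. The mean fell 1.84-fold, from 10026 ± 1269 to 5453 ± 1103 (SD, n = 3; log2 fold change -0.88, 95% interval -1.33 to -0.43, adjusted p = 0.00501), and the call was lost with library totals (-0.73, adjusted p = 0.118) and with GC correction (-0.36, adjusted p = 0.0981). Slc20a1 (ENSMUSG00000027397; chr2:129198764-129211616, plus strand, 11 exons) had 1127, 1244 and 1179 in WT against 1057, 1305 and 887 in Mmp13-/-. Its samples overlapped fully in range, and its log2 fold change was -0.13 (95% interval -0.48 to 0.23, adjusted p = 0.535).

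Phex (ENSMUSG00000057457; chrX:157162075-157415312, minus strand, 22 exons) rose most. Its normalized counts were 4257, 1932 and 2253 in WT against 9523, 10597 and 7007 in Mmp13-/-. WT sample 2 was high for its genotype but still below every Mmp13-/- sample. The mean rose from 2814 ± 1259.8 to 9043 ± 1843 (SD, n = 3), 3.21-fold (log2 fold change 1.68, 95% interval 1.02 to 2.35, adjusted p = 0.00135). The log2 fold change was 1.84 without Mmp13-/- sample 6. With each sample left out in turn, it ranged from 1.43 (without WT sample 4) to 2.04 (without WT sample 2).

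Fam20c (ENSMUSG00000025854; chr5:138754514-138810077, plus strand, 10 exons) had normalized counts of 2647, 2554 and 2259 in WT against 1353, 1440.3 and 1179 in Mmp13-/-. The samples of each genotype lay close together, and the genotypes did not overlap. The mean fell from 2486 ± 202 to 1324 ± 133 (SD, n = 3), 1.88-fold (log2 fold change -0.91, 95% interval -1.23 to -0.59, adjusted p = 0.000752). The log2 fold change was -0.78 with library totals, which did not pass (adjusted p = 0.0580), and turned to 0.22 with GC correction (adjusted p = 0.150).

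GC content of the transcripts moved with these differences. Over genes with a mean log2 CPM above 3 split into 10 equal groups by the GC content of the longest coding transcript, the median log2 fold change went from 0.82 in the lowest group (31.0% to 42.0% GC) to -1.12 in the highest (58.3% to 74.7%). Phex, at 39.6% GC, was in the lowest group and lay 0.86 above its median. Phospho1, at 60.6% GC, was in the highest group and differed from its median by -1.07. Fam20c, at 62.1%, lay 0.21 above the median of that same group. Alpl (56.5%) and Smpd3 (55.8%) lay 0.22 and 0.40 above the medians of their groups, and Enpp1 (45.8%) lay 0.81 above. Ank (51.4%) and Slc20a2 (53.3%) each differed from theirs by -0.29, and Slc20a1 (48.3%) by -0.07.

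**Figure D2:**
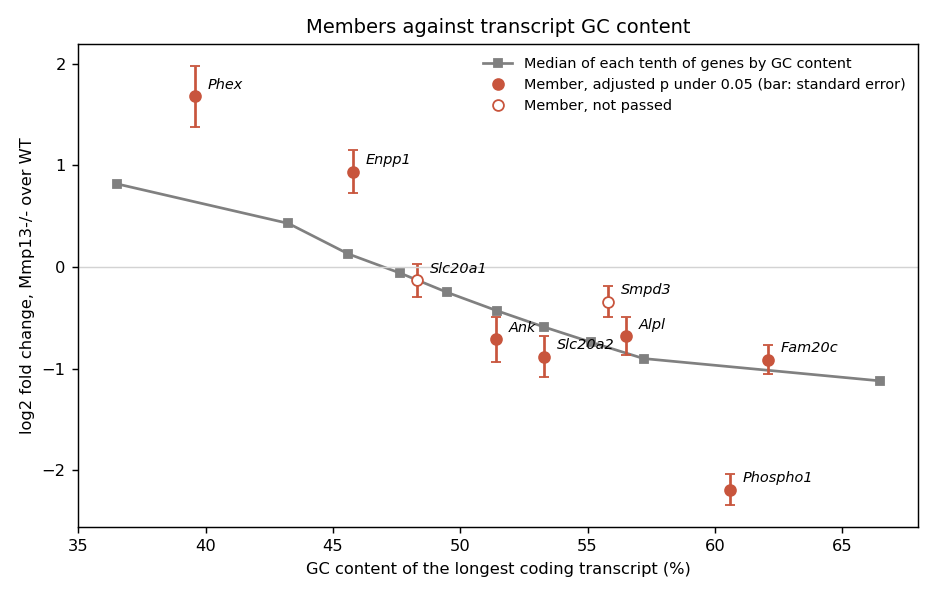
Log2 fold change (Mmp13-/- over WT) of each gene against the GC content of its longest coding transcript in percent, with bars for the standard error, filled points for adjusted p under 0.05 and grey squares for the median of each of 10 equal groups of genes by GC content. Phospho1 lies well below the grey line and Phex and Enpp1 well above it, while Slc20a1 and Fam20c lie close to it.

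When each library was corrected for GC content, 1 gene of the set was lower and 2 were higher, where 13.0% and 23.3% of all genes were. Phospho1 remained lower (log2 fold change -1.13, 95% interval -1.43 to -0.83, adjusted p = 0.000750), and Enpp1 (0.77, 0.40 to 1.13, adjusted p = 0.00816) and Phex (0.81, 0.30 to 1.32, adjusted p = 0.0224) remained higher. Alpl lost its call at a log2 fold change of 0.10 (-0.25 to 0.46, adjusted p = 0.638), and Fam20c at 0.22 (-0.03 to 0.46, adjusted p = 0.150). Ank gave -0.36 (adjusted p = 0.133) and Slc20a2 -0.36 (adjusted p = 0.0981), both with the direction kept and the call lost. Smpd3 turned to 0.40 (adjusted p = 0.0911) and Slc20a1 stood at -0.04 (adjusted p = 0.810). The median over the 9 genes became 0.10, and that over all genes 0.20.

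**Figure D3:**
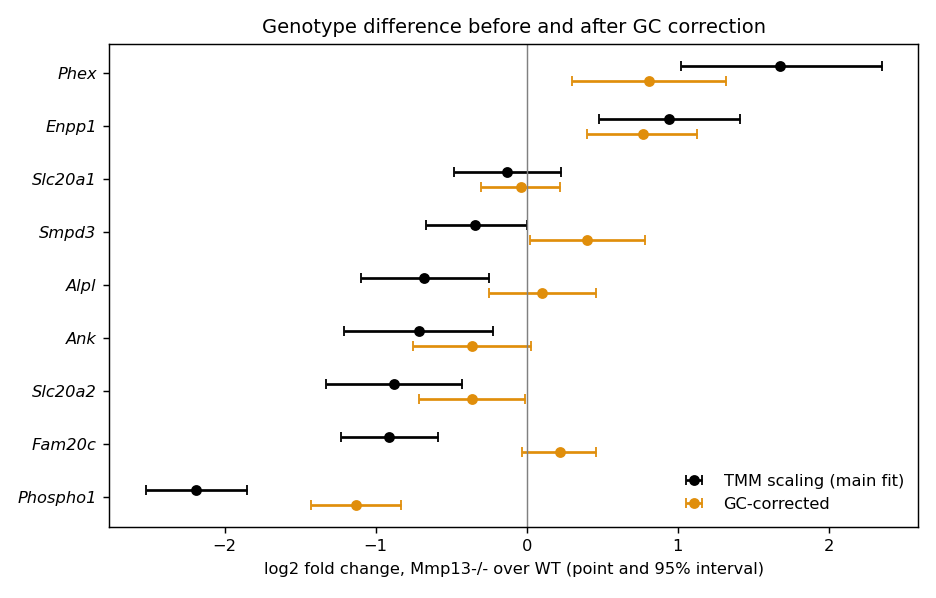
Log2 fold change (Mmp13-/- over WT) of the 9 genes with 95% intervals, in black from TMM scaling and in orange after GC correction. The intervals of Phospho1, Enpp1 and Phex stay on 1 side of 0 in both, whereas the Alpl interval moves from -1.10 to -0.25 with TMM to -0.25 to 0.46 after correction.

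Ratios of 2 genes within a library do not depend on how libraries are scaled. Alpl to Enpp1, the enzyme that removes pyrophosphate over the one that makes it, was 8.22, 9.01 and 8.94 in WT against 2.93, 2.60 and 3.07 in Mmp13-/- as a ratio of counts. The genotypes were far apart, 3.05-fold lower in Mmp13-/- (log2 difference -1.61, and -0.65 after GC correction). Ank to Enpp1 was 3.33, 4.78 and 4.31 in WT against 1.40, 1.29 and 1.17 in Mmp13-/-, 3.19-fold lower (log2 difference -1.68, and -1.14 after GC correction).

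The Phospho1 count, uncertain because most of its exon bases are shared with Zfp652 and Abi3, also fell relative to its partners. Phospho1 to Alpl was 0.0671, 0.0697 and 0.0922 in WT against 0.0279, 0.0228 and 0.0302 in Mmp13-/-, 2.82-fold lower (log2 difference -1.50, and -1.22 after GC correction). Phospho1 to Smpd3 was 0.433, 0.538 and 0.546 in WT against 0.152, 0.142 and 0.122 in Mmp13-/-, 3.63-fold lower (log2 difference -1.86, and -1.53 after GC correction). Neither ratio overlapped between genotypes. Slc20a1 to Slc20a2 was 0.10, 0.123 and 0.135 in WT against 0.166, 0.227 and 0.210 in Mmp13-/-, 1.68-fold higher (log2 difference 0.75), and after GC correction the difference was 0.31 with the samples overlapping. Without Mmp13-/- sample 6 the log2 differences of the ratios of counts were -1.66 for Alpl to Enpp1, -1.61 for Ank to Enpp1, -1.58 for Phospho1 to Alpl, -1.77 for Phospho1 to Smpd3 and 0.71 for Slc20a1 to Slc20a2. The ratios are given as a description with no p (an exact permutation test of 3 against 3 samples cannot go below 0.1).

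**Figure D4:**
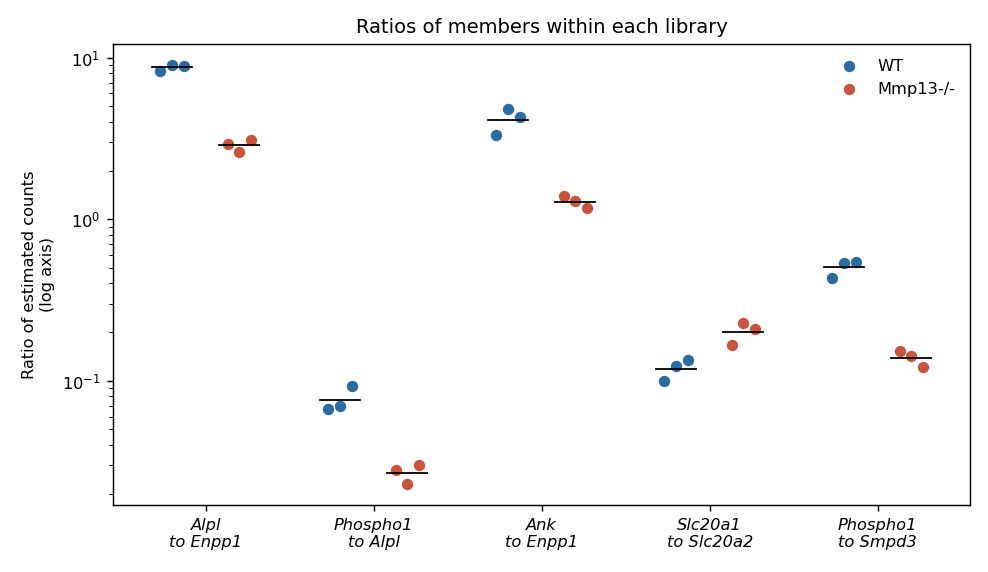
Ratios of estimated counts of 5 gene pairs within each library on a log axis, blue for WT and red for Mmp13-/-, with lines for the geometric mean of each genotype. The genotypes are separate for all 5 ratios, with Alpl to Enpp1 at 8.22 to 9.01 in WT and 2.60 to 3.07 in Mmp13-/-.

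Levels per length, as CPM per kilobase of the longest coding transcript, put Alpl first in both genotypes. In WT it stood at 133 ± 14.1 (SD, n = 3), followed by Slc20a2 at 104 ± 13.1, Ank at 45.1 ± 4.36 and Fam20c at 25.6 ± 2.09. Below them came Phex at 16.6 ± 7.42, Phospho1 at 13.3 ± 1.32, Slc20a1 at 13.2 ± 0.653, Smpd3 at 9.84 ± 1.49 and Enpp1, the lowest, at 5.71 ± 0.889. Neighbours from Fam20c to Slc20a1 overlapped in their samples and their order is not settled, while the other neighbours were separate.

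In Mmp13-/- the levels per length were 83.1 ± 15.8 for Alpl, 56.4 ± 11.4 for Slc20a2, 53.3 ± 10.9 for Phex, 27.5 ± 8.46 for Ank, 13.6 ± 1.37 for Fam20c, 12.1 ± 2.34 for Slc20a1, 11.0 ± 3.09 for Enpp1, 7.80 ± 0.625 for Smpd3 and 2.90 ± 0.133 for Phospho1. Phex was thus in place 3 where it had been in place 5, Enpp1 in place 7 where it had been last, and Phospho1 went from place 6 to last. These levels carry no GC correction, and Phex is at 39.6% GC, Enpp1 at 45.8% and Phospho1 at 60.6%. The part of GC content in the changes of place was not tested. Slc20a2 and Phex overlapped, as did Fam20c with Slc20a1 and Slc20a1 with Enpp1.

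**Figure D5:**
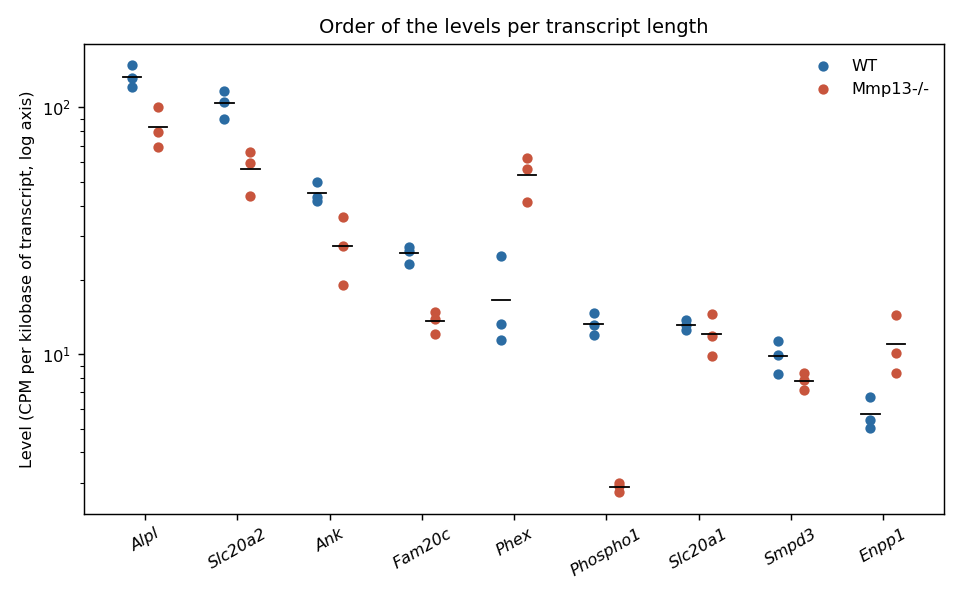
Level of each gene in CPM per kilobase of transcript, without GC correction, on a log axis, ordered by the WT mean, with blue points for WT samples, red points for Mmp13-/- samples and lines for the mean of 3. Alpl is highest in both genotypes, and Phospho1 drops from 13.3 to 2.90 while Phex rises from 16.6 to 53.3.

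The genes whose pattern over the 6 samples was most like that of Phospho1, among 10793 genes, were Zfp651 and Ltbp4, a latent TGF-beta binding protein gene, at a root mean square difference in centred log2 level of 0.135 and 0.151. For Alpl they were Nid2, a basement membrane gene, at 0.0414 and Cpeb1 at 0.0425, and for Enpp1 they were Cd1d1 at 0.0728 and Sept6 at 0.0874. Among the 9 genes themselves, the closest pairs were Slc20a2 with Fam20c at 0.122, Alpl with Fam20c at 0.142 and Alpl with Ank at 0.170. All these genes share the same 6 libraries, so the values describe likeness only.

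The lists of related genes are read against all genes tested, of which 27.3% were higher and 24.3% lower with TMM scaling and 23.3% and 13.0% after GC correction. Of 4 other phosphate carriers 2 rose, both at few counts, 1 fell and 1 did not pass, and after GC correction 2 rose and 2 fell. Slc34a2, a sodium-phosphate carrier of epithelia, fell from 1048 ± 301 to 505 ± 88.4 normalized counts (SD, n = 3; log2 fold change -1.05, adjusted p = 0.00271). Xpr1, the phosphate exporter, had means of 5219 ± 278 and 5222 ± 1161 (log2 fold change 0.00, adjusted p = 0.996), and -0.43 after GC correction (adjusted p = 0.0196). The kidney carriers Slc34a1 (estimated counts of 2.0 to 8.3 in WT and 12.4 to 55.7 in Mmp13-/-, adjusted p = 0.0210) and Slc34a3 (0 to 2.2 and 10.7 to 18.1, adjusted p = 0.00832) passed at these few counts, in libraries with more receptor reads, and neither passed the low-count filter after background subtraction.

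Of 12 pyrophosphate and nucleotide enzymes and transporters 6 rose (27.3% of all genes did) and none fell (24.3%). Their median log2 fold change was 0.63 against 0.10 over all genes. After GC correction 5 rose and 1 fell, with a median of 0.33 against 0.20 over all genes. The Enpp1 relatives Enpp6 (329 ± 136 to 864 ± 175, log2 fold change 1.39, adjusted p = 0.00204), Enpp2, the lysophospholipase D autotaxin (1266 ± 497 to 3026 ± 492, 1.26, adjusted p = 0.00265), and Enpp5 (242 ± 81.4 to 549 ± 129, 1.19, adjusted p = 0.00344) rose. The Enpp2 and Enpp6 enzymes act on lipids. Nt5e, which turns AMP to adenosine and phosphate after Enpp1 has acted, rose from 693 ± 52.5 to 1037 ± 71.3 (0.58, adjusted p = 0.00514). Abcc6, a transporter needed for ATP release, rose from 12.7 ± 3.80 to 51.5 ± 44.9 (1.98, adjusted p = 0.0230), and after background subtraction did not pass (1.57, adjusted p = 0.0818).

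In the list of phosphatases and phosphocholine supply, 8 of 10 genes were tested, of which 2 rose and 4 fell, beside 27.3% and 24.3% of all genes (median log2 fold change -0.22; 1 and 2 after GC correction). Chkb, a choline kinase, fell from 4305 ± 158 to 1271 ± 288 normalized counts (SD, n = 3; log2 fold change -1.76, adjusted p = 0.000123), with 50.7% of its exon bases shared with another annotated gene on the same strand. Sgms2, a sphingomyelin synthase, rose from 986 ± 148 to 2172 ± 597 (1.14, adjusted p = 0.00144). After GC correction the log2 fold change was -0.94 for Chkb (adjusted p = 0.00159) and 0.86 for Sgms2 (adjusted p = 0.00498).

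Of 9 genes of the phosphate hormone axis 4 rose and 2 fell, beside 27.3% and 24.3% of all genes (median 0.38; 3 and 1 after GC correction). Mme, a peptidase of the same family as Phex, rose from 799 ± 138 to 3055 ± 619 (log2 fold change 1.94, adjusted p = 0.000104, and 0.78 after GC correction, adjusted p = 0.00180). Fgfr1, an FGF23 receptor, fell from 20637 ± 3173 to 8591 ± 1010.2 (-1.26, adjusted p = 0.000749), and Pth1r, the parathyroid hormone receptor, from 1658 ± 85.2 to 774 ± 154 (-1.10, adjusted p = 0.000522). After GC correction Fgfr1 stayed past the test at -0.56 (adjusted p = 0.0275), while Pth1r stood at -0.04 (adjusted p = 0.832). Kl, the FGF23 co-receptor, rose from few counts (11.2 ± 9.30 to 95.5 ± 87.0, 3.03, adjusted p = 0.00818), and Fgf23 had means of 40.9 ± 10.6 and 54.0 ± 26.3 (0.38, adjusted p = 0.473).

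Of 10 genes of the Fam20 family and its secreted substrates 4 rose and 2 fell, beside 27.3% and 24.3% of all genes (median 1.04; 4 and 1 after GC correction). Fam20a, the pseudokinase partner of Fam20c, fell from 1994 ± 414 to 964 ± 115 (log2 fold change -1.05, adjusted p = 0.00105) and stood at -0.14 after GC correction (adjusted p = 0.543). The substrates Spp1 (985 ± 163 to 11358 ± 4672, 3.53, adjusted p = 5.29e-05), Mepe (317 ± 32.8 to 1618 ± 293, 2.35, adjusted p = 3.51e-05) and Ibsp (2363 ± 159 to 6980.4 ± 1719, 1.56, adjusted p = 0.000233) rose. Fam20c itself, the kinase, was lower with TMM scaling (-0.91) and stood at 0.22 after GC correction (adjusted p = 0.150). Mepe and Ibsp are also bone markers. Dspp, the main dentin phosphoprotein, rose from 26142 ± 16209 to 57209 ± 12728 (1.13, adjusted p = 0.0370) with overlapping genotypes, and Dmp1 had means of 4904 ± 596 and 4207 ± 484 (-0.22, adjusted p = 0.292).

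Among annexins and other modulators of mineralization, 8 of 9 genes were tested, of which 4 rose and 2 fell, beside 27.3% and 24.3% of all genes (median 0.53; 6 and 1 after GC correction). Anxa1 rose from 1108 ± 219 to 5470.5 ± 149 normalized counts (SD, n = 3; log2 fold change 2.30, adjusted p = 3.96e-05). Mgp, a mineralization inhibitor, rose from 347 ± 4.37 to 743 ± 185 (1.10, adjusted p = 0.000926) and Tnfrsf11b, which encodes osteoprotegerin, from 147 ± 15.4 to 407 ± 98.3 (1.47, adjusted p = 0.000415). Bmp1, a procollagen protease, fell from 9903 ± 799.7 to 4030.1 ± 447 (-1.30, adjusted p = 0.000271). After GC correction the log2 fold change of Bmp1 was -0.39 (adjusted p = 0.0307). It was then 1.91 for Anxa1 (adjusted p = 0.000207), 1.47 for Mgp (adjusted p = 0.000623) and 0.99 for Tnfrsf11b (adjusted p = 0.0199).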

How the data were processed

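Dental pulp RNA was sequenced on an Illumina instrument by the authors, who obtained estimated counts per gene in Strand NGS. The submitters' processing notes name mm10 and DESeq. The aligner settings, annotation release and use of strand are not given in the sources used here. The deposited normalized log2 values are the authors' own, made from those counts and centred on each gene's median.

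Estimated counts were rounded, and edgeR 4.0.16 was run under R 4.3.3 (quasi-likelihood, TMM, filterByExpr, Benjamini-Hochberg over all genes tested, no covariates). DESeq2 1.42.0, limma 3.58.1 on the deposited log2 values, other scalings and filters, GC correction (loess span 0.4, genes over a mean log2 CPM of 3), background subtraction per kilobase of exon, and each sample left out were alternatives. Scripts were tested on simulated data. Positions and GC content came from GENCODE M21 (GRCm38), matched for 99.8% of 53342 genes. A count of 3 was the floor, and covers counting error only.

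Genotypes came from the sample labels. The 9 genes, lists and markers were chosen with earlier results of these data known. Genes named from a list were those past 2-fold with the smallest adjusted p, at most 4 a list, plus Fam20a, Dspp, Dmp1, Xpr1, Nt5e and Fgf23. Zfp652 and Abi3 were named after their values were seen.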

Additional observations from a re-analysis of the deposited data

How the results depend on the processing

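Over the 16 alternatives, of which 6 left out a sample, Phospho1, Enpp1 and Phex kept their direction and call. None of the alternatives changed how reads on shared exons were assigned, so the uncertainty of the Phospho1 count stays. The count of lower genes among the 9, 5 as reported, was 1 with library totals and 1 with GC correction. With library totals the calls were lost at log2 fold changes of -0.55 for Alpl (adjusted p = 0.249), -0.56 for Ank (0.216), -0.73 for Slc20a2 (0.118) and -0.78 for Fam20c (0.0580), against -0.68, -0.71, -0.88 and -0.91 as reported. The count lower past 2-fold, 1 as reported, was 2 without a filter and 1 to 3 with a sample left out (3 without WT sample 5, 2 without Mmp13-/- sample 1, 3 without Mmp13-/- sample 2). The count higher past 2-fold, 1 as reported, was 2 with upper-quartile factors, library totals, at least 10 counts in every sample or background subtraction, 0 with GC correction, and 1 to 2 with a sample left out (2 without WT sample 2 or Mmp13-/- sample 6). The log2 fold change turned sign with GC correction for Alpl (0.10), Smpd3 (0.40) and Fam20c (0.22), and for Slc20a1 with upper-quartile factors (0.07), library totals (0.01) and background subtraction (0.01). The log2 difference of the ratios after GC correction was -0.65 for Alpl to Enpp1, -1.22 for Phospho1 to Alpl, -1.14 for Ank to Enpp1, 0.31 for Slc20a1 to Slc20a2 and -1.53 for Phospho1 to Smpd3. Over all genes, the number lower was 3065 with library totals and 3197 with GC correction, and the number higher was 12716 without a filter and 10677 with DESeq2. Over all genes tested, the log2 fold change had a median of 0.32 with upper-quartile factors, 0.21 with library totals and 0.20 with GC correction, against 0.10 as reported. Where no value above shows it, the cause was not tested. The labels do not say that equal replicate numbers mark pairs, so no paired analysis was run.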
